A study of Mus musculus with 3 samples.

Results

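Described here are 10 genes of the heat shock response and of protein folding: the transcription factor gene Hsf1 and the chaperone genes Hspa1a, Hspa1b, Hspa5, Hspa8, Hspa9, Hsp90aa1, Hsp90ab1, Hsph1 and Dnajb1. They were taken by symbol, and all 10 were found among the 55536 annotated genes of the deposited tables. The measurements were total RNA sequencing, after removal of ribosomal RNA, of the chromatin fraction of bone-marrow-derived macrophages. These are primary immune cells grown from the marrow of C57BL/6J mice. There was 1 group of 3 libraries, replicates 1, 2 and 3. Its cells were exposed to 100 ng/ml Lipid A for 12 h (it is the membrane anchor of bacterial lipopolysaccharide and a TLR4 agonist), were kept without it for 12 h after washing, and were stimulated with 100 ng/ml again for 15 min. No genetic change, age or sex is named in the labels, and no unstimulated or heat-shocked cells were analysed here, so no response to Lipid A or to heat can be read from these values. The labels number the libraries as biological replicates but give all 3 a single donor identifier, and they do not say whether separate animals were used, so part of the spread between them may be technical.

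Chaperones of the HSP70 family bind exposed hydrophobic stretches of unfolded proteins in cycles of ATP hydrolysis, J-domain proteins such as Dnajb1 deliver the clients and start hydrolysis, and nucleotide exchange factors such as Hsph1 (HSP110) end the cycle. HSP90 proteins act later, on nearly folded clients that include many kinases. HSF1 is held inactive by chaperones and, when unfolded proteins occupy them, trimerises and binds heat shock elements, which are inverted repeats of GAA. Chaperones of the endoplasmic reticulum follow the unfolded protein response instead. RNA bound to chromatin is rich in nascent and incompletely spliced transcripts, so its levels stand closer to transcription than those of whole-cell RNA do.

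The promoter sequences of the stress-inducible pair Hspa1a and Hspa1b are shown because the pair gave the 2 lowest levels of the group and shares most of its sequence. The 250 bases before each annotated start are given 5′ to 3′ from RefSeq on GRCm38.p6, on the minus strand, at chr17:34972157-34972406 for Hspa1a and chr17:34959239-34959488 for Hspa1b. Capitals mark a match to GAANNTTC, a pair of heat shock element units placed head to head, and, nearer the start, ATTGG, which on the opposite strand reads as the box named CCAAT.
Hspa1a: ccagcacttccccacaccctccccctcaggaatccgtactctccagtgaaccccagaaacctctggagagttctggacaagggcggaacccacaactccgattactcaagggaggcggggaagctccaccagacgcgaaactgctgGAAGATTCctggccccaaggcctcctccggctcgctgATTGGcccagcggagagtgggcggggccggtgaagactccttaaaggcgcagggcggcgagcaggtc
Hspa1b: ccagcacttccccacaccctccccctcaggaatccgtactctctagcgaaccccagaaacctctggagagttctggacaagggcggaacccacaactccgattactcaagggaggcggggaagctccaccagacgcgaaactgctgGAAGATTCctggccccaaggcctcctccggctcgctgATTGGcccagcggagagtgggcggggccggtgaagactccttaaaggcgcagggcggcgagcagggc
The 2 windows were identical at 247 of 250 bases. The differences were C44T, T47C and T249G, with positions counted from 1 at the 5′ end of the window, the base of Hspa1a first and that of Hspa1b second. None of the 3 falls in the capitals.

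Shorter sites are shown for Hspa5 and Hsph1 because they hold the kind of element through which each gene is known to respond to stress. Each is 30 bases long. The Hspa5 site lies on the plus strand at chr2:34772020-34772049, and its capitals mark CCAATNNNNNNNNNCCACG, the endoplasmic reticulum stress response element, which includes a CCAAT box. The Hsph1 site lies on the minus strand at chr5:149636351-149636380, and its capitals mark TTCNNGAA, a pair of heat shock element units placed tail to tail.
Hspa5: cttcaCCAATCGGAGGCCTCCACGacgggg
Hsph1: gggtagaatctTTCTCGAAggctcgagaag
In the 250 bases before the start of 32851 RefSeq promoters, searched on both strands, 6.69% held GAANNTTC, 7.17% TTCNNGAA, 33.8% CCAAT and 0.113% the endoplasmic reticulum element. The 3-unit element GAANNTTCNNGAA occurred in 0.466% of windows and in no window of a member. Windows, 7 in all, were matched for 5 of the 10 genes, and not every window held a match to these motifs. For Dnajb1, the other one of the 5 genes, the only match was the CCAAT box. Measured from the RefSeq start, the Hspa1 element began at -104 in both genes and the Hspa5 element at -65, and the Hsph1 element began at -33 or -54 by which of 2 starts is used. GENCODE places the starts of Hspa5 and Hsph1 further upstream, so that both of these elements lie inside the gene spans given below. These are letter matches and were not tested for binding.

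Levels are given as TPM, a measure in which counts are first divided by effective transcript length and then brought to an equal sum in every library, so that genes can be compared. Among the chaperones that cells make at all times, Hspa8 (the main cytosolic HSP70, HSC70) was listed at 104, 94.3 and 80.8 TPM in replicates 1, 2 and 3. Hspa9 (mortalin, the HSP70 of mitochondria, on chromosome 18) was listed at 82.4, 58.1 and 83.8 TPM, a mean of 74.8 ± 14.4 (SD, n = 3). Replicate 2 was the low library of Hspa9 and replicate 3 the low library of Hspa8, and the ranges of the 2 genes overlapped. Hsp90ab1 (the constitutive cytosolic HSP90, chr17:45567775-45573271) was listed at 48.6, 56.1 and 49.1 TPM, and Hspa5 (BiP, the HSP70 of the endoplasmic reticulum, chr2:34771970-34777547) at 56.2, 42.6 and 48.7 TPM. Their means, 51.2 ± 4.18 and 49.2 ± 6.85 TPM (SD, n = 3), differed by less than the spread between libraries, and the order of Hsp90ab1 and Hspa5 turned in replicate 1.

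Hsf1 itself (chr15:76477422-76501913) was listed at 22.7, 26.4 and 24.9 TPM, a mean of 24.7 ± 1.89 (SD, n = 3). The factor gene thus lay below the 4 constitutive chaperones and above every stress-inducible one in each library of the gene table.

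The stress-inducible chaperones covered a wider range. Hsp90aa1, the inducible cytosolic HSP90 (chr12:110690605-110702728), was listed at 15.3, 14.6 and 16.6 TPM. Hsph1, the HSP110 exchange factor (chr5:149614287-149636376), was listed at 7.75, 14.0 and 8.95 TPM, high in replicate 2, where it came close to Hsp90aa1. Dnajb1, the J-domain partner known as HSP40 (chr8:83608193-83612653), was listed at 1.81, 2.15 and 1.69 TPM. Below it stood the heat-inducible HSP70 pair on chromosome 17, with Hspa1a (34969190-34972156) at 0.88, 0.87 and 0.48 TPM and Hspa1b (34956436-34959238) at 0.39, 0.57 and 0.36 TPM. These last values rested on few fragments: the expected counts were 30.4, 37.1 and 25.9 for Hspa1a and 12.6, 22.9 and 18.5 for Hspa1b, against 2267, 2851 and 2695 for Hspa8. On the log2(TPM + 1) scale, 7 of the 9 pairs of neighbours in the order of the means kept their order in all 3 libraries, with a mean difference above its SD. The exceptions were Hspa8 with Hspa9 and Hsp90ab1 with Hspa5. With 3 libraries, an exact 2-sided sign-flip test cannot give a p below 0.25, so the order is a description.

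**Figure D1:**
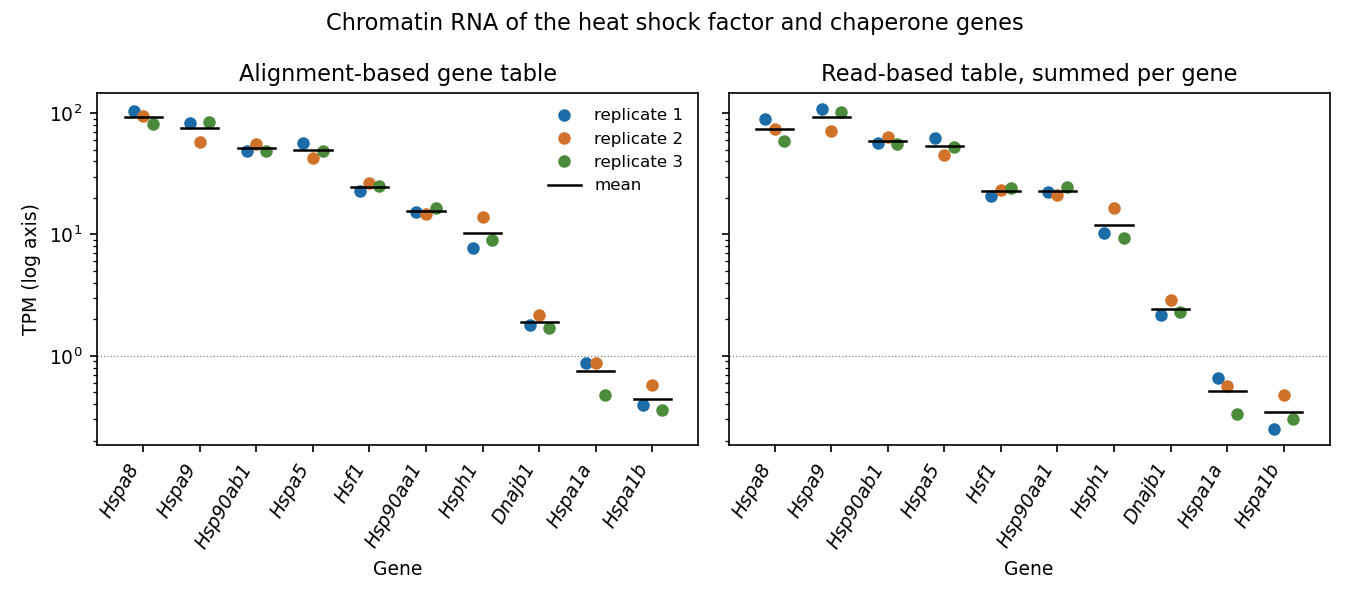
TPM (log axis) of the 10 genes in each of the 3 libraries (points) with the mean (bar), from the alignment-based gene table on the left and the read-based table on the right. Both panels fall from Hspa8 and Hspa9 to Hspa1a and Hspa1b, which lie below the dotted line at 1 TPM, while the order of Hspa8 and Hspa9 differs between the panels.

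The median of the 4 constitutive chaperones Hspa5, Hspa8, Hspa9 and Hsp90ab1 was 5.99 ± 0.13 on the log2(TPM + 1) scale (SD, n = 3), and that of the 5 inducible ones was 1.52 ± 0.12. The difference was 4.62, 4.20 and 4.57 in replicates 1, 2 and 3, a mean of 4.47 ± 0.23. The inducible median is the value of Dnajb1, the middle one of the 5, with Hspa1a and Hspa1b counted as 2 genes. Single genes of the classes lay closer, with Hsp90aa1 at 4.04 ± 0.09 and Hspa5 at 5.64 ± 0.20 on that scale (SD, n = 3). The 4 constitutive genes held 83.3 ± 2.29% of the summed TPM of the 10 genes (SD, n = 3). Within the HSP90 pair, the constitutive Hsp90ab1 exceeded the inducible Hsp90aa1 by a TPM ratio of 3.17, 3.83 and 2.96. Within cytosolic HSP70, the ratio of Hspa8 to Hspa1a was 118, 108 and 168. Against the sum of Hspa1a and Hspa1b, which share much of their sequence, it was 81.8, 65.5 and 96.1. Both ratios use all transcripts of Hspa8, of whose TPM 56.7 ± 2.85% lay in transcripts that keep intronic sequence (SD, n = 3). Hspa1a and Hspa1b have protein-coding transcripts alone. In protein-coding transcripts, Hspa8 was listed at 34.58, 37.44 and 30.65 TPM.

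Of the 10 genes, 8 reached 1 TPM on average, against 27.2% of all 55536 annotated genes. The 2 below it were Hspa1a and Hspa1b, whose sum averaged 1.18 ± 0.309 TPM, and the member next above was Dnajb1 at 1.88 ± 0.239 TPM (SD, n = 3). The median of the 10 was 4.36 ± 0.06 on the log2(TPM + 1) scale, beside 3.09 ± 0.02 for the 15873 genes with a mean expected count of at least 10 and 3.43 ± 0.03 for the 11755 protein-coding ones among them (SD, n = 3). All 10 members passed that count filter.

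Features under 200 nt took 35.5 to 43.3% of the TPM of a library, and 3 abundant genes resembling ribosomal RNA took 11.8 to 18.5% of the counts. With both left out and the TPM rescaled, Hspa8 came to 176 ± 28.1 TPM, Hsf1 to 46.4 ± 2.75 and Hspa1a to 1.41 ± 0.466 (SD, n = 3), in the same order. A second deposited quantification, read-based, was taken directly from the reads without alignment. In it Hspa9 stood first at 93.1 ± 19.4 TPM and Hspa8 second at 73.9 ± 15.1, and Hsf1 and Hsp90aa1 stood level at 22.6 ± 1.75 and 22.6 ± 1.98 TPM (SD, n = 3). The log2 ratio of read-based to alignment-based TPM had a median of 0.13 ± 0.05 over the members and 0.36 ± 0.02 over 15768 genes. It was highest for Hsp90aa1, at 0.54 ± 0.03, and lowest for Hspa1a, at -0.53 ± 0.09.

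Near-identical copies bear on the Hsp90aa1, Hspa8 and Hspa1 values. Hspa1a and Hspa1b are transcripts of 2967 and 2803 bases, each as long as its gene, and they were 99.2% identical over 2201 aligned bases with a shared run of 638 bases. Of the windows of 100 bases in Hspa1a, 47.1% also occur in Hspa1b. Fragments from such stretches cannot be assigned to 1 of the 2 genes, so the pair is best read as a sum, which was 1.27, 1.44 and 0.84 TPM. Outside the members, 9 annotated genes matched a member at 95% identity or more over at least 80% of their length, and 4 of them had a mean expected count of at least 10.

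For Hsp90aa1 these were the processed pseudogenes Gm5511, with expected counts of 89.5, 68.7 and 78.3, and Gm12346, with 31.7, 50.8 and 54.4. Hsp90aa1 itself had 312, 382 and 539. Per length the shorter Gm5511 came closer to it, at 12.1, 7.99 and 7.11 TPM. Part of the fragments placed on either pseudogene may belong to Hsp90aa1 or the reverse, which was not tested. For Hspa8 the pseudogene Gm15459 had expected counts of 12.8, 0 and 40.0, and the overlapping lincRNA Gm26825 had 0, 30.6 and 0. The counts of that locus thus fell to 1 of the 2 annotations in each library, and they were small beside those of Hspa8.

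The annotation places small nucleolar RNA genes inside 2 members, on the same strand. They were Snord14c, Snord14d and Snord14e in Hspa8 and Gm22200 and Gm26109 in Hspa9. Snord14c and Snord14d, which are 86 bases long, had 46.2, 72.2 and 73.9 and 55.2, 88.4 and 70.9 estimated counts in the read-based table, whereas the alignment-based table gave all 5 an effective length of 0 and no counts. The antisense gene Gm20481 overlaps Hspa1a and was listed at 0 in both tables. No source used here says whether counting used the strand.

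In 7 of the 10 genes, 32.8 to 75.3% of the TPM (mean of 3 libraries) was assigned to transcripts annotated as retained intron. Such transcripts keep intronic sequence. The share of TPM in such transcripts had a median of 57.4 ± 3.56% over these 7 members (SD, n = 3). The median was 46.8 ± 1.25% over the 6584 protein-coding genes that have them and average at least 1 TPM (SD, n = 3, quartiles 30.3 and 62.2%). Of the 7 members, 6 lay above the latter median. Hsph1 had the highest share, at 70.7, 82.9 and 72.2%, and replicate 2 was the high library. Hspa9 followed with 68.1, 73.2 and 68.0%, then Hsp90ab1 with 60.1 ± 1.64%, Hspa8 with 56.7 ± 2.85%, Hsf1 with 55.0 ± 4.55% and Hsp90aa1 with 51.1 ± 2.89% (SD, n = 3). Hspa5 was lowest, at 36.6, 34.9 and 27.0%. Dnajb1, Hspa1a and Hspa1b have protein-coding transcripts alone in the annotation, and the Hspa1 pair has no intron.

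These shares turn on transcript length. No share in fragments was computed for the 6584 genes, so the comparison with them holds for TPM alone. Counted in fragments rather than in TPM, retained-intron transcripts held 59.5 ± 3.47% of Hspa8, 56.5 ± 6.41% of Hsph1 and 49.6 ± 3.23% of Hsf1, but only 25.5 ± 2.19% of Hsp90ab1, 24.2 ± 1.76% of Hspa9, 11.7 ± 4.05% of Hsp90aa1 and 5.28 ± 1.41% of Hspa5 (SD, n = 3). The leading retained-intron transcripts differ in length. Hspa8-208 is 3158 bases long and was listed at 27.5 ± 5.79 TPM, whereas Hspa9-202 is 504 bases long and was listed at 24.4 ± 3.67 TPM beside 22.9 ± 6.34 for its coding transcript of 3049 bases. Hsf1 also had 21.7 ± 0.328% of its TPM in transcripts annotated as targets of nonsense-mediated decay, a pathway that degrades RNA with early stop codons (SD, n = 3). Hspa5 had 2.86 ± 1.77% in its 1 such transcript (SD, n = 3). Counted in fragments, these shares were 28.3 ± 0.34% for Hsf1 and 0.352 ± 0.195% for Hspa5 (SD, n = 3). The Hspa5 transcript, 477 bases long, had expected counts of only 4.43, 2.14 and 10.9. The read-based TPM shares of Hsf1 and Hspa5 were 23.3 ± 2.49 and 6.64 ± 2.13%, and the 1 such transcript of Hsp90ab1 was at 0 in both tables. In the read-based table the median retained-intron share of the 7 genes was 53.6 ± 1.21%, beside 45.3 ± 0.707% over the same 6584 genes, and all 7 lay above it (SD, n = 3).

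**Figure D2:**
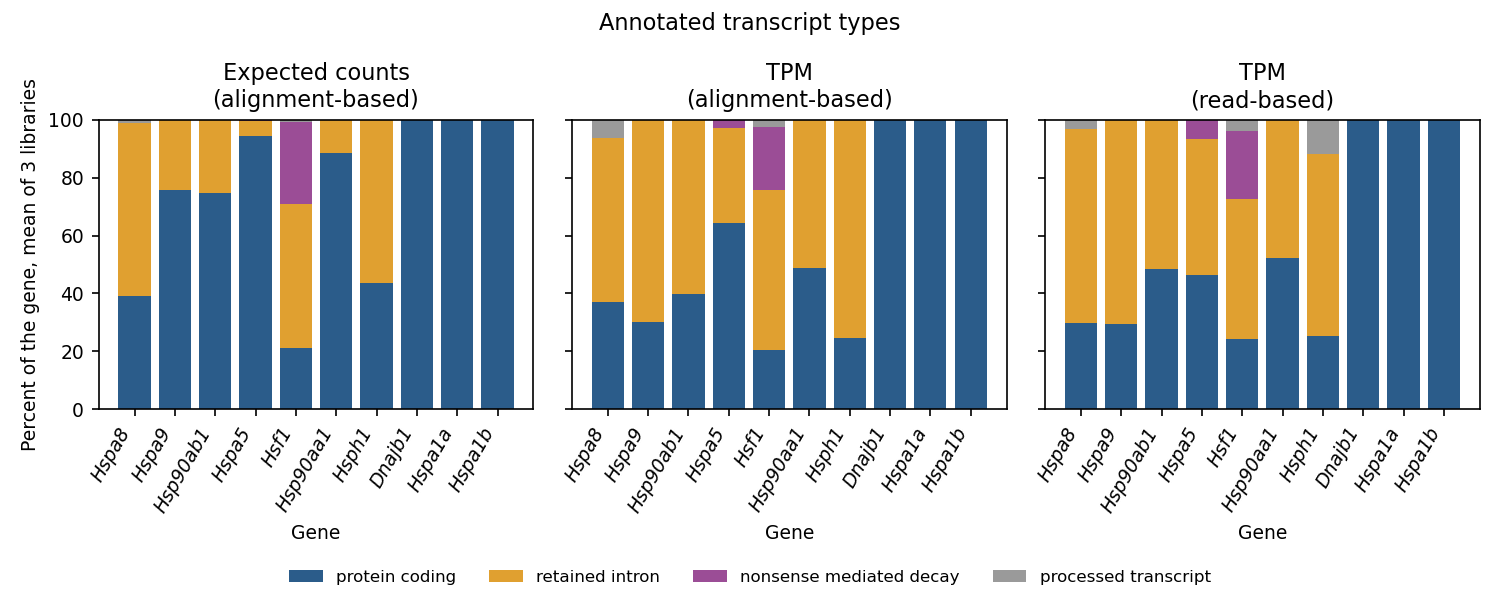
Percent of each gene (mean of 3 libraries) in each annotated transcript type, by expected counts, by alignment-based TPM and by read-based TPM. The retained-intron part of Hspa9 grows from 24.2% of counts to 69.8% of TPM, while that of Hspa8 stays between 56.7 and 66.7% in all 3 panels.

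With the TPM of protein-coding transcripts alone, a setting chosen after the data were seen, Hspa8 stood at 34.2 ± 3.41, Hspa5 at 31.5 ± 3.89, Hspa9 at 22.9 ± 6.34, Hsp90ab1 at 20.4 ± 1.84, Hsp90aa1 at 7.57 ± 0.277, Hsf1 at 5.07 ± 1.19 and Hsph1 at 2.39 ± 0.111 TPM (SD, n = 3). Hspa5 passed Hspa9 and Hsp90ab1, and Hsp90aa1 passed Hsf1. Dnajb1, Hspa1a and Hspa1b kept their values, and the constitutive minus inducible difference was 3.32 on the log2(TPM + 1) scale. Hsph1, which in all transcripts was high in replicate 2, was listed at 2.27, 2.40 and 2.49 TPM in its coding transcripts. In this alignment-based split the high value of replicate 2 lay in its retained-intron transcripts, at 5.48, 11.6 and 6.46 TPM. By read-based values its coding transcripts were also highest in replicate 2, at 2.55, 3.32 and 2.90 TPM, beside 6.09, 10.7 and 6.02 in retained-intron transcripts.

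Spread between the libraries was compared on CPM, the counts divided by library size, scaled by TMM (trimmed mean of M-values), which removes the part of a difference made by a few abundant RNAs. In these units 4 of the 10 genes had a highest library at least 1.5 times the lowest. Hspa1a and Hspa1b enter the 4 as 2 genes, though fragments from their shared stretches cannot be assigned between them. Of the 15873 genes above the count filter, 28.6% had such a range, so the share of the members was not far from that background. Hspa1a ranged 1.86-fold (2.02, 2.10 and 1.13 CPM), with replicate 3 low. Hspa9 ranged 1.60-fold (83.5, 52.1 and 83.2 CPM), with replicate 2 low. Hspa1b ranged 1.58-fold and Hsph1 1.55-fold (13.2, 20.4 and 14.9 CPM), both with replicate 2 high. Without replicate 2, 1 of the 10 genes passed 1.5-fold (Hspa1a), and without replicate 3, 2 did (Hspa9 and Hsph1). A range over 2 libraries cannot exceed that over 3, for any gene. The share of all genes was not computed for 2 libraries, so these counts have no background beside them.

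Counting error was set beside that spread. The coefficient of variation of Hspa1b was 26.4%, and its counts alone would give 24.3%. For Hspa1a the 2 values were 30.8 and 18.1%, and for Dnajb1 14.9 and 11.2%. The well-counted Hspa9 and Hspa8 varied by 24.8 and 16.5%, where counting would give 2.84 and 1.97%, and Hsp90aa1, the steadiest, by 5.66 against 5.06%. The median over the members was 15.7%, beside 13.5% over the 15873 genes (quartiles 7.76 and 22.8%).

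**Figure D3:**
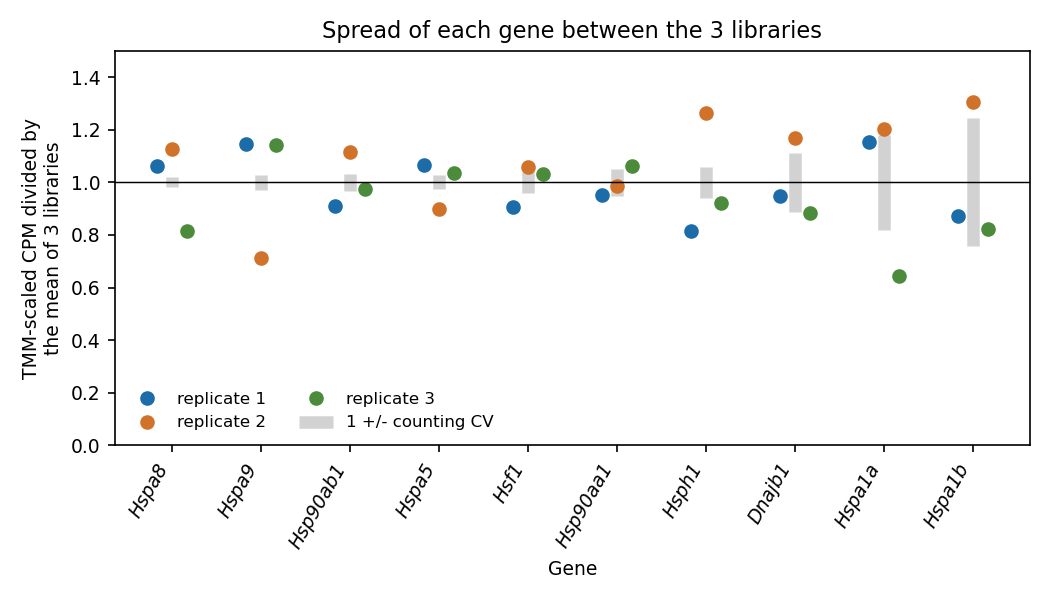
TMM-scaled CPM of each gene in each library (points) divided by the mean of the 3 libraries, with a grey bar of 1 plus or minus the coefficient of variation that counting alone would give. Replicate 2 is low for Hspa9 and high for Hsph1, and the points of Hspa1b lie close to their counting bar.

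The highest library was replicate 2 for 7 genes, replicate 1 for Hspa9 and Hspa5, and replicate 3 for Hsp90aa1, where 34.2, 34.6 and 31.2% of the 15873 genes were highest in replicates 2, 1 and 3. In TPM the same genes were split 5, 3 and 2, and by the read-based values 4, 4 and 2. Among the members, replicate 2 thus held the most highest values in counts scaled by TMM or DESeq2 and in TPM as deposited or rescaled. In the read-based quantification it tied with replicate 1. Shares of all genes were computed for TMM-scaled CPM alone, so the other splits have no background beside them. The libraries were made from 1000, 250 and 500 ng of RNA and held 14609979, 17423948 and 24162551 expected counts. Replicate 2 was thus the library with the least starting RNA; whether that plays a part was not tested.

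Beyond the 10 genes, 97 further genes of the folding network were taken from lists of families and compartments, and 82 of them averaged 1 TPM or more. Of all 55536 annotated genes, 27.2% did, which is also the share to set beside the list counts that follow. It covers every annotated gene type, and no share was computed for protein-coding genes alone. In the HSP70 family, 9 of 15 reached 1 TPM. The 3 highest were the members Hspa8, Hspa9 and Hspa5, and the lowest was Hspa2, known from the testis, at 0.35 ± 0.105 TPM (SD, n = 3). By read-based values 11 of 15 reached it, Hspa4 (54.0 ± 3.5 TPM) came after Hspa9 and Hspa8, and Hspa1b was the lowest. All 4 HSP90 genes reached it, and the HSP90 of the endoplasmic reticulum, Hsp90b1 (GRP94), was the highest at 83.7, 91.4 and 84.2 TPM, above Hsp90ab1 in every library. Trap1, the mitochondrial HSP90, was listed at 22.7 ± 1.94 TPM.

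J-domain proteins included levels far above that of Dnajb1. Of 21, 20 reached 1 TPM, and Dnajc7 was listed at 209, 187 and 203 TPM, Dnajb6 at 110 ± 9.21 and Dnajc13, an endosomal protein, at 105 ± 8.11 (SD, n = 3). Dnaja4 was the lowest at 0.19 ± 0.135 TPM. Dnajb1 ranked among the lowest 3 of the list. In the read-based table Dnajb6 led at 290 ± 34.6 TPM, Dnajc13 was at 189 ± 17.5 and Dnaja4 at 0.457 ± 0.228, and Dnajb1 was again among the lowest 3.

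Of the co-chaperones of HSP70 and HSP90, 20 of 21 reached 1 TPM. Bag6, which guards tail-anchored and misfolded proteins, was listed at 97.8 ± 1.81 TPM, Chordc1, an HSP90 partner, at 66.0 ± 9.64, Ppid, a cyclophilin that binds HSP90, at 40.6 ± 1.59 and Bag2 at 0.543 ± 0.164 (SD, n = 3). In the read-based table Chordc1 led at 125 ± 8.14 TPM and Bag2 was at 1.27 ± 0.441, so that all 21 reached 1 TPM. The cytosolic chaperonin is a ring of 8 kinds of subunit. With the mitochondrial pair Hspd1 and Hspe1, all 10 chaperonin genes reached 1 TPM, from Cct4 at 38.7 ± 2.25, Cct8 at 34.6 ± 0.493 and Cct6a at 28.6 ± 4.42 to Hspe1 at 4.83 ± 0.693 TPM. The read-based table ordered them differently, with Tcp1 first at 84.5 ± 12.7 TPM (26.8 in the gene table), Cct6a at 71.9 ± 6.01, Cct4 at 48.9 ± 2.8 and Hspe1 at 14.3 ± 0.721, level with Hspd1 at 14.2 ± 2.84 (SD, n = 3). Small heat shock proteins, which hold unfolded proteins without ATP, were mostly lower. Only Hspb6, Hspb9 and Hspb1 of 9 reached 1 TPM, at 4.16 ± 0.334, 3.33 ± 0.275 and 1.36 ± 0.55, and 5, Cryab among them, were listed at 0 in all 3 libraries of the gene table.

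In the endoplasmic reticulum list 17 of 18 genes reached 1 TPM. After Hsp90b1 came Sel1l, part of the machinery that sends misfolded proteins to degradation, at 70.6 ± 5.42 TPM, and Calr (calreticulin) at 57.3 ± 9.18, with Hspa5 next, and Sdf2l1 was lowest at 0.813 ± 0.269 (SD, n = 3). Read-based values put Sdf2l1 at 3.84 ± 0.322 TPM, all 18 genes above 1 TPM and Dnajb9 lowest at 2.97 ± 0.997. All 10 mitochondrial genes reached it, led by Hspa9, with Trap1 and the protease Lonp1 (17.5 ± 4.03 TPM) next and Grpel1, the exchange factor of Hspa9, lowest at 2.55 ± 0.235. Among Hsf1 and the genes that regulate or resemble it, 8 of 10 reached 1 TPM. The acetyltransferase gene Ep300, at 94.6 ± 5.76 TPM, and Trim28, at 39.9 ± 9.75, exceeded Hsf1, whereas Hsf2bp was listed at 0.00667 ± 0.0115 TPM. The read-based table listed Hsf2bp at 2.59, 0.516 and 0.394 TPM, Sirt1 (34.7 ± 1.63) also above Hsf1, and Hsf5 lowest at 0.245 ± 0.0529, with 9 of 10 at 1 TPM or more. Genes outside the rule for names that lead or end a list in the read-based table were picked after their values were seen.

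A list of 18 textbook targets of HSF1 covered a wide range of levels. It ran from Hspa8, Chordc1 and Hsp90ab1 to the Hspa1 pair and Cryab, 15 of 18 reached 1 TPM, and its median was 3.20 ± 0.06 on the log2(TPM + 1) scale (SD, n = 3). That value lies beside the 3.09 ± 0.02 of all genes above the count filter and below the 3.43 ± 0.03 of the protein-coding ones among them (SD, n = 3). The list itself was not filtered by count, and 17 of its 18 genes passed that filter. The 10 genes are part of these lists, so the lists are a setting for them and no independent support.

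**Figure D4:**
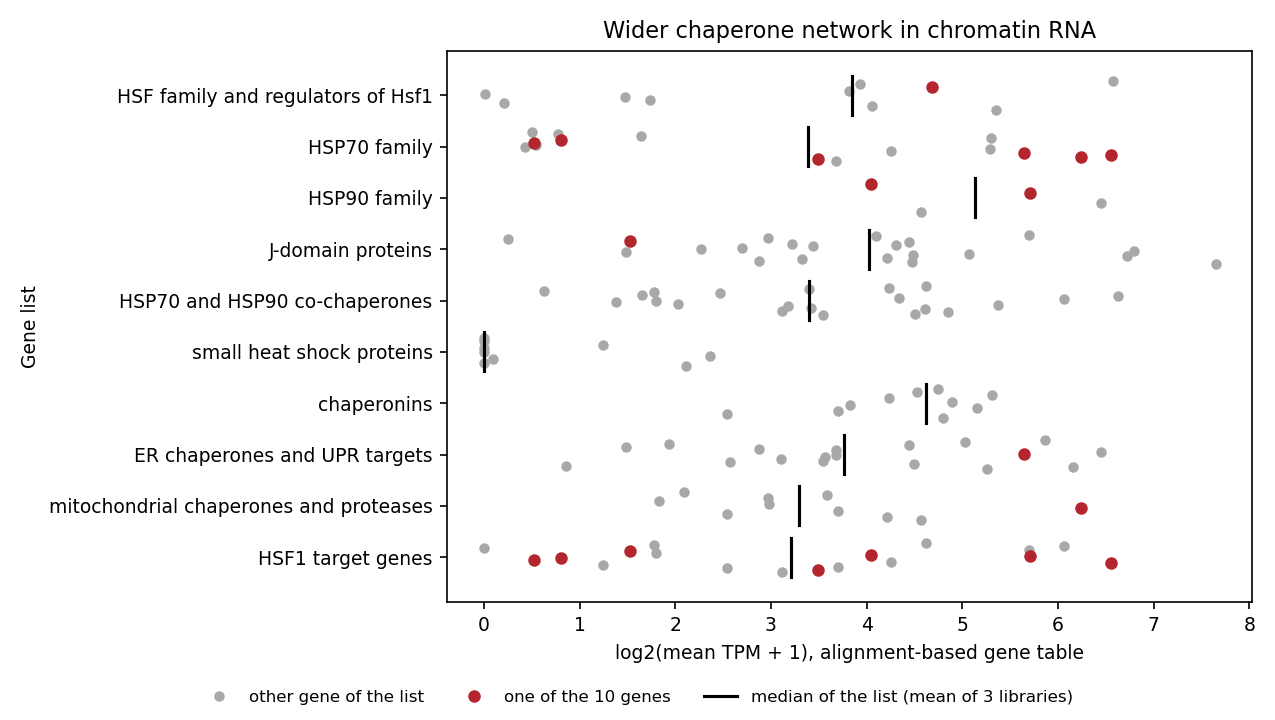
Each point is a gene placed by log2(mean TPM + 1) within 10 lists of the folding network, with the 10 genes in red and the median of each list as a bar. Small heat shock proteins lie near 0, with 3 of 9 at 1 TPM or more, while the red points of the HSF1 target list run from Hspa1b to Hspa8.

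The macrophage label was checked on marker genes. All 8 macrophage markers were above 1 TPM, with Adgre1 (F4/80) at 330 ± 55.6, Lyz2 at 163 ± 9.95 and Csf1r at 128 ± 14.6 TPM (SD, n = 3). Of 28 markers of neutrophils, lymphocytes, dendritic, stromal, erythroid and mast cells, 2 reached 1 TPM in the gene table (Zbtb46 and Pecam1), 8 were at 0 in all libraries, and their summed TPM lay between 4.69 and 6.12. Read-based values put 8 of the 28 at 1 TPM or more, the highest being the T cell gene Cd3d at 15.2 TPM, which the gene table listed at 0.0167 (these 3 genes were picked after their values were seen). Among stromal markers, expected counts in replicates 1, 2 and 3 were 1, 38 and 47 for Col1a1 and 0, 24 and 29 for Col1a2. Those of Col3a1 were 0, 25 and 32, so these collagen genes were nearly absent from replicate 1. Pecam1 had 40, 60 and 55, Cdh5 had 5, 2 and 4, and Pdgfra had 0 in each. The collagen genes were also picked after their values were seen. The part of cells other than macrophages in the chaperone values was not tested.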

How the data were processed

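Each library came with 3 deposited tables, on mm10 with GENCODE M21, per the README files deposited with them. For genes and, in a second table, for transcripts, the authors gave expected counts and TPM from alignments to the transcriptome, and in the third, read-based table, estimated counts and TPM from the reads themselves, per the file headers. Aligner, counting tool, strand setting and versions are not given in the sources used here. TPM came from the gene table unless another is named, and read-based TPM was summed per gene. Rows of no annotated gene (26345, holding 0.228 to 1.24% of the counts) were left out.

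Libraries held 14609979 to 24162551 expected counts. These were rounded for TMM factors (edgeR 4.0.16, R 4.3.3; 1.03, 1.02 and 0.955) and for DESeq2 1.42.0 size factors, an alternative. Genes entered background counts at a mean count of at least 10, and logarithms used a pseudocount of 1, which understates differences between low genes. Copies were searched with BLAST 2.17.0. Other steps used Python 3.11.15, numpy 2.4.6, pandas 2.3.3 and matplotlib 3.10.9. The scaling was run on simulated counts in which some genes were raised in replicate 1. The simulated libraries otherwise shared the same composition, so differences made by abundant RNAs were not tested there. Without molecular identifiers, PCR copies count more than once, so the counting error given is a lower limit.

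With 1 group, no test between conditions was made. The genes and lists were chosen with earlier results of these data known. The text names the 10 genes, the 3 highest and the lowest of each wider list by mean TPM, genes overlapping a member and copies with a mean count of at least 10. Promoters came from RefSeq on GRCm38.p6, the assembly of mm10. Alternatives covered quantification, scaling, pseudocount, thresholds and leaving out each library.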

Additional observations from a re-analysis of the deposited data

How the results depend on the processing

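The constitutive minus inducible difference kept its direction under all alternatives, and sizes moved under some. The median level of the members, on the log2(TPM + 1) scale, was 5.24 with TPM rescaled without features under 200 nt and the genes resembling ribosomal RNA, 4.56 in the read-based table, 2.84 with protein-coding transcripts alone and 4.30 with a pseudocount of 0.1, and lay between 4.33 and 4.39 when a library was left out. The constitutive minus inducible difference was 4.71 rescaled, 3.32 with protein-coding transcripts alone, 4.99 with a pseudocount of 0.1 and 4.39 to 4.60 without a library. The number of members with a 1.5-fold range, 4 in TMM-scaled CPM, was also 4 with DESeq2 size factors and 5 in the read-based table. It was 3 in TPM as deposited or rescaled, 0 at a threshold of 2-fold and 1 to 3 without a library. No share of all genes was computed for these settings. Without a filter on low counts, the background share with a 1.5-fold range over all libraries was 52.8%. Members highest in replicate 1 numbered 4 with rescaled TPM and 4 in the read-based table, those highest in replicate 2 numbered 4 in the read-based table, and those highest in replicate 3 numbered 2 in TPM and 2 in the read-based table. Shares of all genes were not computed for these splits. The median retained-intron share was 53.6% in the read-based table and 25.6% of expected counts, the latter and the protein-coding setting being chosen after seeing the data. The level of each gene moved by more than its SD for all 10 genes when rescaled, for 6 in the read-based table and for 7 with protein-coding transcripts alone. The cause of these changes was not tested beyond what each setting leaves out. No paired analysis was possible because the series holds 1 group. Depth limits Hspa1a and Hspa1b, with 12.6 to 37.1 expected counts per library.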
